A study of Saccharomyces cerevisiae with 32 samples.

Results

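The 33 genes described here make, store and take up the sterols of Saccharomyces cerevisiae, and were chosen by name out of 6328 genes measured by RNA sequencing. They are 10 genes from acetyl-CoA through mevalonate to squalene (ERG10, ERG13, HMG1, HMG2, ERG12, ERG8, MVD1, IDI1, ERG20, ERG9), 13 genes from squalene to ergosterol (ERG1, ERG7, ERG11, ERG24, ERG25, ERG26, ERG27, ERG28, ERG6, ERG2, ERG3, ERG5, ERG4), and 10 others. The others are the electron donors NCP1 and CYB5, the sterol esterification genes ARE1 and ARE2, the ester hydrolase genes YEH1 and YEH2, the regulators UPC2 and ECM22, and the importers AUS1 and PDR11. All 33 had 1 row each in the data and were well covered, with about 39 reads or more behind every value.

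The cells came from 3 related strains. Y22-3 carries the xylose isomerase gene xylA of Clostridium phytofermentans, XYL3 of Scheffersomyces stipitis and TAL1, Y127 was evolved from it on xylose with oxygen and has null mutations of ISU1 and HOG1, and Y128 was evolved from Y127 without oxygen and has also lost GRE3 and IRA2. All 3 strains carry G418 resistance, and each is 1 line, so a difference between strains rests on 1 line per genotype. They were grown in yeast extract and peptone with 2% glucose or xylose, with oxygen (aerobic) or without (anaerobic), in 12 groups of 2 libraries, and Y22-3 and Y128 also gave 8 single libraries in galactose or sorbitol. Anaerobic xylose cultures of Y22-3 and Y127, and all sorbitol cultures, are described as not growing. Like the glucose and other xylose cultures, they were started from saturated cultures. The glucose and other xylose cultures grew to mid-log phase. Those of Y22-3 and Y127 on anaerobic xylose were inoculated at about that density and kept for as long. In the oxygen comparisons of Y22-3 and Y127 on xylose, lack of oxygen and lack of growth therefore cannot be told apart. Y127 libraries on glucose carry no separate letters and are called columns 1 and 2 here, in an order that means nothing.

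Ergosterol, the main sterol of yeast membranes, is made from acetyl-CoA in a long chain of reactions in the endoplasmic reticulum. The chain up to squalene needs no molecular oxygen, while the enzymes encoded by ERG1, ERG11, ERG25, ERG3 and ERG5 each consume it, so that yeast without oxygen cannot complete ergosterol and takes sterol from the medium through the transporters Aus1 and Pdr11. Upc2 and Ecm22 are related zinc cluster proteins that sense sterol and activate many of these genes, and of the HMG-CoA reductases, which set the pace of the early steps, Hmg1 is known as the form used with oxygen and Hmg2 as the form used when oxygen is scarce.

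Values are log2 of reads scaled to gene length and to the total of the library (log2 RPKM). A lower value thus means a smaller share of the library, and neither the number of cells nor the amount of RNA per cell was measured. Totals were 7.53 to 24.1 M reads (M, mega) in the 24 duplicated libraries, and 9.37 to 22.5 M in the 8 single ones. Genes counted as higher or lower had a Benjamini-Hochberg adjusted p under 0.05 in limma over the 5801 genes with a mean of at least 1 RPKM, and log2 changes are given with their standard error (SE, n = 2 against 2). The duplicates were grown on different days. A p-value rests on the spread between duplicates pooled over all 12 groups and drawn toward a trend with expression, not on the compared pairs alone. The 19 hypoxic marker genes of the study, AUS1 and PDR11 aside, rose without oxygen on glucose in all 3 strains (median changes 7.54, 7.21 and 8.07). On xylose 9 rose and 4 fell in Y22-3, 18 rose in Y127 and 17 in Y128 (medians 0.95, 2.79 and 7.46). Over all genes, the median change without oxygen was −1.28 on xylose in Y22-3 and between −0.11 and 0.18 in the other 5 oxygen comparisons. For Y22-3 on xylose, counts of members and changes whose direction turned are therefore also given with each library centred on its median gene (centred values). Most other changes there are uncentred. Centring raised the median over the members there from −3.41 to −2.26, and over the importers from 0.75 to 1.90.

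The question of the first comparisons was how the sterol genes differ without and with oxygen when glucose, on which every strain grows, is the sugar. In all 3 strains the importers and regulators rose, HMG2 became the more abundant reductase message in place of HMG1, ARE1 rose, and so did ERG1, ERG11 and ERG25, for oxygen-using enzymes after squalene. In Y22-3, 21 of 33 members rose and 5 fell, against 37.7% and 27.6% of all genes. In Y127, 18 rose and 7 fell, against 35.3% and 32.9%, and in Y128, 17 rose and 7 fell, against 39.6% and 28.8%. The median change over the 33 was 0.70, 0.49 and 0.54, beside 0.15, 0.02 and 0.18 over all genes. With centred libraries 18 rose and 8 fell in Y22-3 (32.4% and 40.2% of all genes), Y127 had 17 rising and 9 falling (33.6% and 42.0%), and Y128 had 15 and 12 (34.1% and 41.9%). The 7 falls in Y127 became 4 without its aerobic column 1 or its anaerobic column 2.

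**Figure D1:**
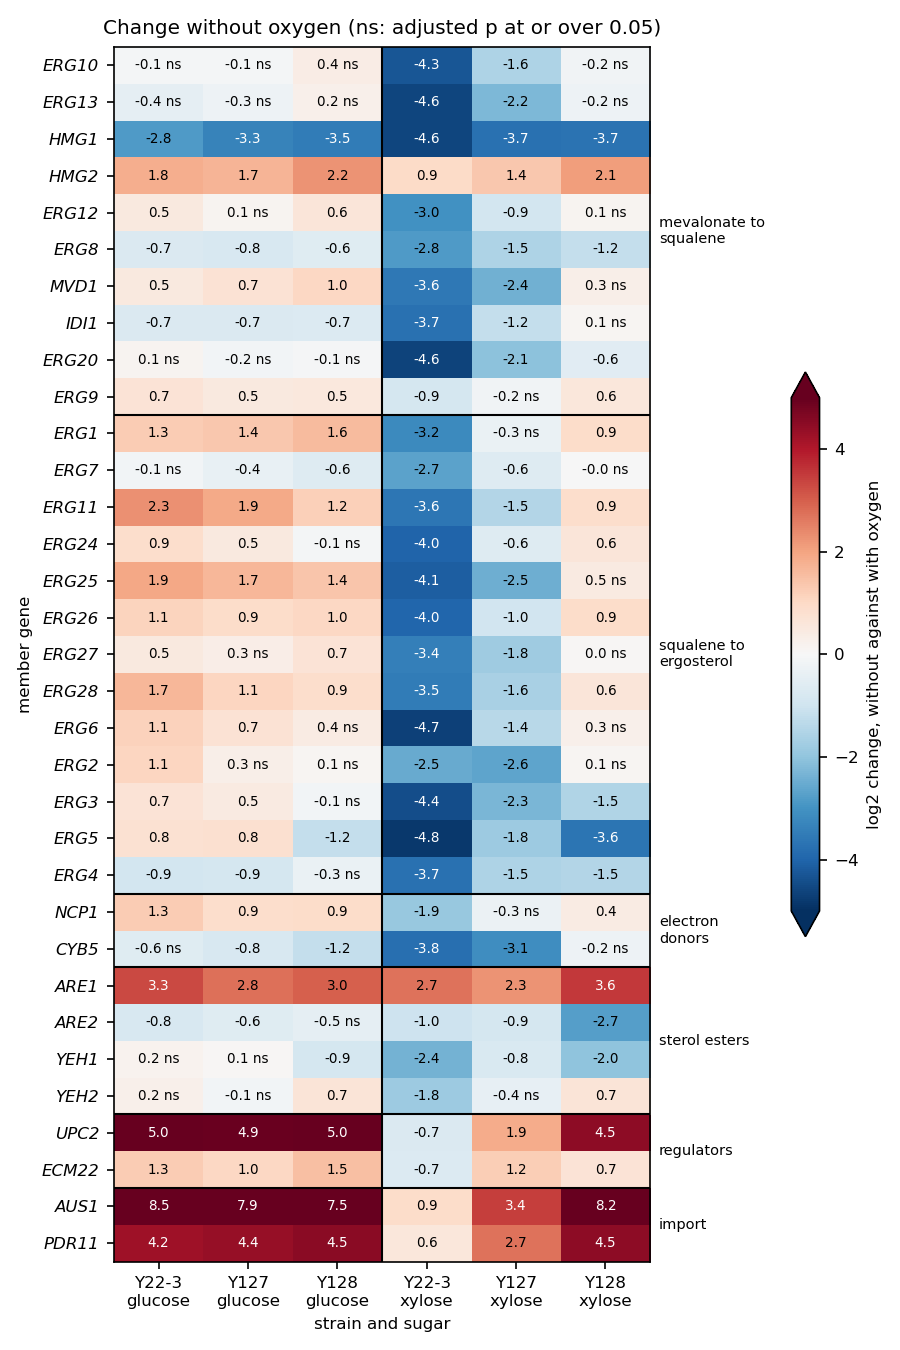
Log2 change of each of the 33 members (rows, grouped by role) between cultures without and with oxygen, for every strain on glucose and xylose (columns), coloured from blue (lower) to red (higher) and marked ns where the adjusted p was 0.05 or more; colours end at 5 in either direction. On glucose the columns of the 3 strains look alike, with 21, 18 and 17 members higher, against 37.7%, 35.3% and 39.6% of all genes. On xylose the counts are 4 in Y22-3, 6 in Y127 and 14 in Y128, against 20.7%, 33.6% and 21.0%. With centred libraries the xylose counts are 7, 6 and 14, against 40.3%, 28.9% and 24.8% of all genes.

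AUS1 rose by more on glucose than any other member. AUS1 (YOR011W) and PDR11 (YIL013C) encode ATP-binding cassette transporters needed for sterol uptake. On glucose, AUS1 stood at 1.62 and 1.42 with oxygen against 9.94 and 10.08 without in Y22-3, at 1.86 and 1.99 against 9.79 and 9.79 in Y127, and at 2.02 and 2.21 against 9.50 and 9.67 in Y128. The groups were far apart, and the anaerobic level was 359-fold higher in Y22-3, 232-fold in Y127 and 177-fold in Y128 (log2 changes 8.49 ± 0.17, 7.86 ± 0.17 and 7.47 ± 0.17). On glucose, PDR11 stood at 2.98 and 2.61 with oxygen against 6.87 and 7.22 without in Y22-3, at 2.79 and 2.77 against 6.96 and 7.32 in Y127, and at 1.95 and 2.03 against 6.43 and 6.57 in Y128. PDR11 thus rose by 4.25 ± 0.19, 4.36 ± 0.19 and 4.51 ± 0.19 on the log2 scale, with no overlap in any strain, and stayed below AUS1 in every anaerobic glucose library. Both genes are also on the hypoxic list that the study used, so their direction without oxygen is not independent of that choice.

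On xylose the same importers differed between strains. On xylose, AUS1 stood at 1.94 and 2.26 with oxygen against 2.99 and 3.05 without in Y22-3, at 1.93 and 1.65 against 5.31 and 5.14 in Y127, and at 1.51 and 1.91 against 9.84 and 9.93 in Y128. The anaerobic libraries were above the aerobic ones in each strain, by 1.89-fold in Y22-3, 10.9-fold in Y127 and 290-fold in Y128. Tested as an interaction, the oxygen effect on AUS1 in Y127 exceeded that in Y22-3 by 2.52 ± 0.23 (adjusted p = 1.44e-08), and that in Y128 exceeded Y127 by 4.74 ± 0.23 (adjusted p = 2.62e-11). On xylose, PDR11 stood at 2.27 and 2.39 with oxygen against 3.00 and 2.81 without in Y22-3, at 2.73 and 2.16 against 5.11 and 5.25 in Y127, and at 2.38 and 2.37 against 6.89 and 6.83 in Y128. PDR11 rose by 0.57 ± 0.19, 2.73 ± 0.19 and 4.48 ± 0.19, and each step between strains passed the test of the interaction (Y127 against Y22-3 2.16, Y128 against Y127 1.75). In the step from Y22-3 to Y127 the median over all genes was itself 1.35. With centred libraries the median of the importers in that step went from 2.34 to 0.95, and both were still called higher. The small rise of PDR11 in Y22-3 was not called without 1 of the A libraries (0.51 without the aerobic, 0.48 without the anaerobic, adjusted p = 0.0509 and 0.0623) or when its 4 libraries were fitted alone, without the spread of the other groups (adjusted p = 0.0946). In Y128 the xylose and glucose levels of both importers without oxygen differed by 0.30 ± 0.17 and 0.36 ± 0.19, and neither difference passed the test (adjusted p = 0.154 and 0.143), though both did with centred libraries (0.51 and 0.56).

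UPC2 (YDR213W) and ECM22 (YLR228C) encode the sterol-sensing activators. On glucose, UPC2 stood at 2.72 and 2.82 with oxygen against 7.79 and 7.67 without in Y22-3, at 2.67 and 2.68 against 7.54 and 7.71 in Y127, and at 3.15 and 3.18 against 8.12 and 8.14 in Y128. The rise was nearly the same in the 3 strains, 4.96 ± 0.18, 4.95 ± 0.18 and 4.97 ± 0.18, or 31.2-, 30.8- and 31.3-fold. On xylose, UPC2 stood at 2.77 and 2.53 with oxygen against 2.15 and 1.73 without in Y22-3, at 2.31 and 2.38 against 4.27 and 4.16 in Y127, and at 2.00 and 2.56 against 6.69 and 6.86 in Y128. On xylose UPC2 was therefore low without oxygen in Y22-3, intermediate in Y127 and high in Y128, and the 3 anaerobic pairs did not overlap. Y22-3 changed by −0.71 ± 0.18, Y127 by 1.87 ± 0.18 and Y128 by 4.49 ± 0.18, and the fall in Y22-3 turned to a rise of 0.44 with centred libraries and was not called when its libraries were fitted alone (adjusted p = 0.0522). Its oxygen effect in Y127 exceeded that in Y22-3 by 2.58 ± 0.25 (adjusted p = 2.28e-08), and Y128 exceeded Y127 by 2.62 ± 0.25 (adjusted p = 1.51e-07). Over all genes the median difference between Y127 and Y22-3 was 1.35. Centring brought the median of UPC2 and ECM22 in that difference from 2.26 to 0.86, and both were still called higher.

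ECM22 moved less than UPC2. On glucose, ECM22 stood at 3.50 and 3.52 with oxygen against 4.71 and 4.88 without in Y22-3, at 3.45 and 3.40 against 4.39 and 4.54 in Y127, and at 3.78 and 3.89 against 5.41 and 5.25 in Y128. It rose by 1.29 ± 0.15, 1.04 ± 0.15 and 1.49 ± 0.15. On xylose, ECM22 stood at 4.34 and 4.29 with oxygen against 3.74 and 3.51 without in Y22-3, at 3.77 and 3.60 against 4.77 and 5.08 in Y127, and at 3.63 and 3.53 against 4.36 and 4.18 in Y128. On xylose it rose by 1.24 ± 0.15 in Y127 and 0.69 ± 0.15 in Y128, and its change of −0.70 ± 0.15 in Y22-3 became 0.46 with centred libraries. Unlike UPC2, the anaerobic xylose level of ECM22 was higher in the non-growing Y127 than in the growing Y128, but the oxygen effects of those 2 strains did not pass the test of their difference (−0.55 ± 0.21, adjusted p = 0.0515). That difference did pass without Y127 aerobic replicate A (−0.63) or without Y127 anaerobic replicate A (−0.71, adjusted p = 0.0234 and 0.0168). With oxygen on glucose, ECM22 was above UPC2 in every library, and without oxygen on glucose UPC2 was above ECM22 in every library.

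**Figure D2:**
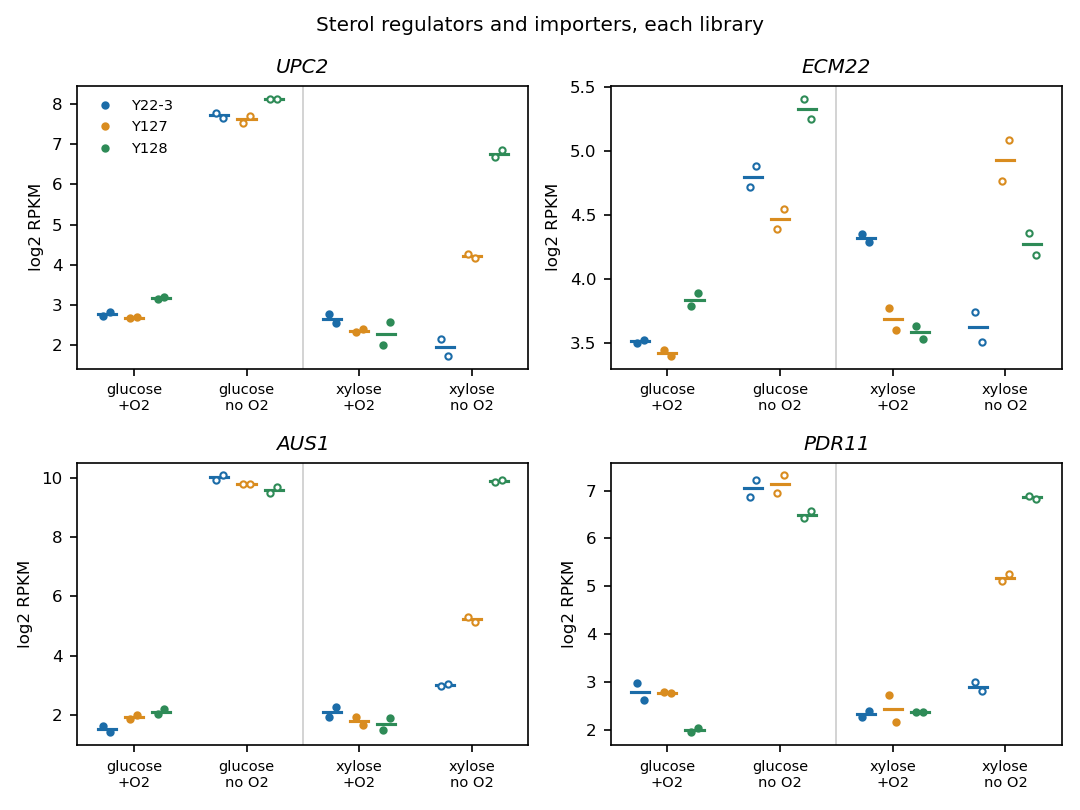
Log2 RPKM of UPC2, ECM22, AUS1 and PDR11 in each of the 24 duplicated libraries (circles, filled with oxygen and open without, coloured by strain; bars are means of 2), by sugar and oxygen. Without oxygen on xylose AUS1 climbs from 2.99 and 3.05 in Y22-3 to 5.31 and 5.14 in Y127 and 9.84 and 9.93 in Y128, and UPC2 shows the same order.

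Among the genes up to squalene, the HMG-CoA reductases went opposite ways in every strain and on either sugar. On glucose, HMG1 stood at 7.64 and 7.65 with oxygen against 5.15 and 4.45 without in Y22-3, at 7.99 and 7.89 against 4.74 and 4.43 in Y127, and at 7.96 and 7.95 against 4.42 and 4.47 in Y128. HMG1 (YML075C) fell by 2.85, 3.35 and 3.50 on the log2 scale (7.2-, 10.2- and 11.4-fold lower). On glucose, HMG2 stood at 5.69 and 5.61 with oxygen against 7.53 and 7.42 without in Y22-3, at 5.46 and 5.45 against 7.22 and 7.12 in Y127, and at 5.00 and 4.96 against 7.14 and 7.30 in Y128. HMG2 (YLR450W) rose by 1.82 ± 0.13, 1.71 ± 0.13 and 2.24 ± 0.13. HMG1 was thus the higher of the pair in every aerobic glucose library and HMG2 in every anaerobic one, on a scale per gene length.

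On xylose, HMG1 stood at 7.53 and 7.59 with oxygen against 3.08 and 2.88 without in Y22-3, at 7.59 and 7.24 against 3.52 and 3.83 in Y127, and at 7.34 and 7.45 against 3.65 and 3.74 in Y128. HMG1 changed by −4.58 ± 0.19, −3.74 ± 0.19 and −3.71 ± 0.19, so it fell in the strain that grew as it did in the strains that did not. On xylose, HMG2 stood at 6.20 and 6.36 with oxygen against 7.29 and 7.14 without in Y22-3, at 5.58 and 5.51 against 6.87 and 6.92 in Y127, and at 5.14 and 5.15 against 7.24 and 7.25 in Y128. HMG2 rose by 0.94 ± 0.13, 1.35 ± 0.13 and 2.10 ± 0.13, with no overlap between aerobic and anaerobic libraries in any strain. HMG2 was 1 of 4 members, with ARE1, AUS1 and PDR11, that rose in Y22-3 on xylose, and 1 of 7 with centred libraries. With centred libraries its rise was smaller in Y127 than in Y22-3. The change of HMG1 did not pass a test of difference between Y128 and Y127 (0.03 ± 0.27, adjusted p = 0.938), and its difference between Y128 and Y22-3 of 0.87 turned to −0.29 with centred libraries.

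The other 8 genes up to squalene changed little on glucose. MVD1, the diphosphomevalonate decarboxylase gene, rose in the 3 strains (0.47, 0.74 and 1.05), as did the squalene synthase gene ERG9 (0.70, 0.50 and 0.54), while the phosphomevalonate kinase gene ERG8 (−0.72, −0.79 and −0.60) and the isopentenyl diphosphate isomerase gene IDI1 (−0.74, −0.70 and −0.67) fell. The changes of ERG9 in Y128 and of MVD1 in Y22-3 were not called with centred libraries (0.24 and 0.20). The mevalonate kinase gene ERG12 rose in Y22-3 (0.48) and Y128 (0.59), and neither was called with centred libraries (0.21 and 0.29). ERG10 and ERG13, for the thiolase and synthase that make HMG-CoA, and ERG20, for farnesyl diphosphate synthase, were between −0.43 and 0.39 and did not pass the test. In Y22-3 the calls of MVD1 and ERG12 were lost without aerobic replicate A, aerobic replicate B or anaerobic replicate A (lowest 0.34 and 0.29), and ERG13 became a called fall without anaerobic replicate A (−0.77). ERG9 was not called in Y127 without anaerobic column 1 (0.37, adjusted p = 0.0948), nor IDI1 in Y128 without anaerobic replicate B (−0.51, adjusted p = 0.0542).

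On xylose these 8 genes separated the strains. In Y22-3 all 8 fell, from −4.63 for ERG20 and −4.57 for ERG13 to −0.87 for ERG9. There 63.7% of all genes fell, and the median over all genes was −1.28. Only ERG9 turned, to 0.28, with centred libraries. On xylose, ERG20 stood at 8.75 and 8.68 with oxygen against 4.25 and 3.93 without in Y22-3, at 8.41 and 7.87 against 6.11 and 6.07 in Y127, and at 8.25 and 8.38 against 7.65 and 7.85 in Y128. ERG20 was lowest without oxygen in Y22-3, and the aerobic and anaerobic pairs did not overlap in any strain. In Y127, 7 of the 8 fell, against 23.5% of all genes, from −2.40 for MVD1 to −0.92 for ERG12. ERG9 did not pass the test there (−0.19). In Y128 ERG8 (−1.19) and ERG20 (−0.57) fell and ERG9 rose (0.55), where 26.3% of all genes fell and 21.0% rose. The other 5 were between −0.24 and 0.30 and did not pass the test. The ERG20 fall in Y128 was not called without aerobic replicate A, aerobic replicate B or anaerobic replicate A (from −0.64 to −0.47, adjusted p up to 0.152), and the ERG9 rise not without anaerobic replicate B (0.51, adjusted p = 0.0579).

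**Figure D3:**
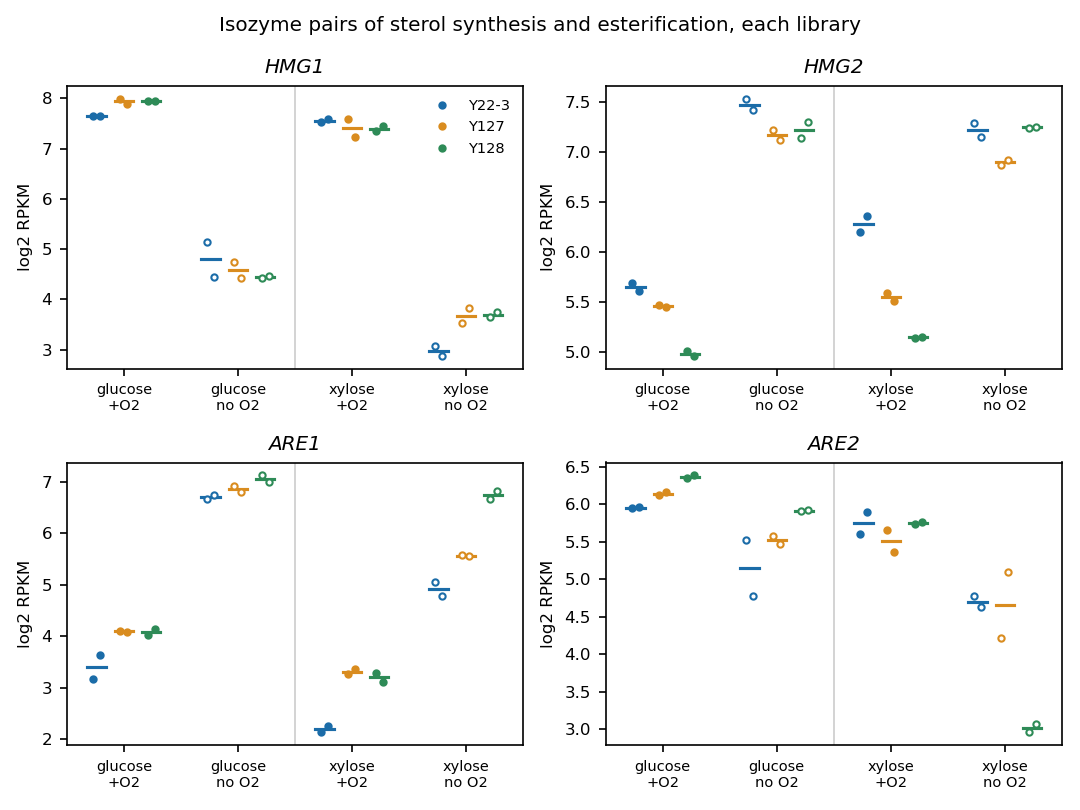
Log2 RPKM of the HMG-CoA reductase genes HMG1 and HMG2 and of the sterol acyltransferase genes ARE1 and ARE2 in each of the 24 duplicated libraries (circles, filled with oxygen and open without, coloured by strain; bars are means of 2). HMG1 falls and HMG2 rises without oxygen on both sugars in all 3 strains, and ARE1 rises throughout; ARE2 reaches its lowest values, 2.96 and 3.07, in Y128 on xylose.

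Between squalene and ergosterol, 11 of 13 genes rose and 1 fell on glucose in Y22-3, against 37.7% and 27.6% of all genes. In Y127, 9 rose and 2 fell, against 35.3% and 32.9%, and in Y128, 6 rose and 2 fell, against 39.6% and 28.8%. With centred libraries 6 rose and 5 fell in Y128, near the 34.1% and 41.9% of all genes. ERG1 (YGR175C) encodes squalene epoxidase, which uses oxygen in the first of these steps. On glucose, ERG1 stood at 8.05 and 8.19 with oxygen against 9.67 and 9.13 without in Y22-3, at 8.69 and 8.53 against 10.37 and 9.56 in Y127, and at 9.02 and 9.03 against 10.71 and 10.50 in Y128. ERG1 rose by 1.28 ± 0.22, 1.35 ± 0.22 and 1.58 ± 0.22. ERG11 (YHR007C) encodes lanosterol demethylase, the target of azole drugs. On glucose, ERG11 stood at 9.16 and 9.31 with oxygen against 11.35 and 11.70 without in Y22-3, at 9.53 and 9.36 against 11.45 and 11.22 in Y127, and at 9.95 and 9.93 against 11.18 and 11.07 in Y128. ERG11 rose by 2.29 ± 0.18, 1.89 ± 0.18 and 1.19 ± 0.18, the largest rise of the 13 in Y22-3 and Y127. ERG25 (YGR060W) encodes the oxidase that removes sterol methyl groups. On glucose, ERG25 stood at 9.78 and 9.73 with oxygen against 11.59 and 11.79 without in Y22-3, at 10.00 and 9.90 against 11.75 and 11.48 in Y127, and at 10.10 and 10.04 against 11.52 and 11.37 in Y128. It rose by 1.93 ± 0.19, 1.67 ± 0.19 and 1.38 ± 0.19, and for all 3 genes the anaerobic libraries lay above the aerobic ones in every strain.

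ERG3 (YLR056W) and ERG5 (YMR015C) encode the desaturases of the late steps. On glucose, ERG3 stood at 9.02 and 8.92 with oxygen against 9.57 and 9.71 without in Y22-3, at 9.35 and 9.13 against 9.85 and 9.56 in Y127, and at 9.37 and 9.36 against 9.32 and 9.13 in Y128. ERG3 rose in Y22-3 (0.67 ± 0.16) and Y127 (0.47 ± 0.16), and in Y128 its change of −0.14 ± 0.16 did not pass the test, but was a called fall with centred libraries (−0.44, adjusted p = 0.00955). The rise in Y127 was not called without aerobic column 2 or anaerobic column 1 (0.36 and 0.32, adjusted p = 0.139 and 0.143) with the libraries fitted alone (adjusted p = 0.154), or with centred libraries (adjusted p = 0.0582). On glucose, ERG5 stood at 8.07 and 8.13 with oxygen against 8.59 and 9.12 without in Y22-3, at 8.17 and 8.14 against 9.03 and 8.85 in Y127, and at 7.94 and 7.92 against 6.90 and 6.54 in Y128. ERG5 rose by 0.75 ± 0.20 in Y22-3 and 0.78 ± 0.20 in Y127 but fell by 1.21 ± 0.20 in Y128, where the aerobic level was close to that of the other strains. The Y22-3 rise was not called without anaerobic replicate B (0.49, adjusted p = 0.0778). The fall in Y128 was called with each of its 4 libraries left out in turn.

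The difference of ERG5 between Y128 and Y22-3 on glucose was then tested, in an interaction chosen after its values were seen. The oxygen effect on ERG5 was lower in Y128, with a difference of −1.96 ± 0.29 (adjusted p = 0.000152). In that comparison 7 of 33 members had a lower oxygen effect in Y128 and 0 a higher one, against 2.41% and 6.55% of all genes. At an unadjusted p under 0.05 the number of members with a higher effect was 4, and 1 was called higher with the libraries fitted alone (ERG4, 0.60) or without Y22-3 anaerobic replicate A (ERG13, 1.0). With centred libraries 11 were lower, against 6.26% of all genes. The other 6 were ERG11 (−1.10), ERG24 (−1.0), ERG2 (−0.97), ERG3 (−0.81), YEH1 (−1.03) and AUS1 (−1.02). UPC2 and PDR11 differed by 0.00 ± 0.25 and 0.26 ± 0.27 and did not pass (adjusted p = 0.996 and 0.652). Of the 7, only the calls of ERG5, ERG11 and ERG24 held with each of the 8 libraries left out in turn, and the count fell to 3 without Y128 aerobic glucose replicate B and to 4 without replicate A of Y128 or of Y22-3 aerobic glucose.

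The remaining genes between squalene and ergosterol followed the oxygen-using ones in part on glucose. ERG26 and ERG28, for the decarboxylase and the scaffold of the complex that Erg25 works in, rose in all 3 strains (1.11, 0.92 and 1.02 for ERG26, 1.65, 1.07 and 0.89 for ERG28). On glucose, ERG24 stood at 6.71 and 6.72 with oxygen against 7.64 and 7.56 without in Y22-3, at 6.86 and 6.88 against 7.44 and 7.28 in Y127, and at 6.81 and 6.78 against 6.76 and 6.62 in Y128. ERG24 (YNL280C), for a sterol reductase, rose in Y22-3 and Y127 (0.89 ± 0.15 and 0.49 ± 0.15) and was at −0.11 ± 0.15 in Y128 (adjusted p = 0.523), a called fall with centred libraries (−0.41, adjusted p = 0.00207). On glucose, ERG6 stood at 7.85 and 7.87 with oxygen against 9.27 and 8.74 without in Y22-3, at 7.96 and 8.0 against 8.94 and 8.49 in Y127, and at 8.26 and 8.24 against 8.84 and 8.48 in Y128. ERG6 (YML008C), for the methyltransferase that gives fungal sterols their extra methyl group, rose in Y22-3 and Y127 (1.15 ± 0.20 and 0.74 ± 0.20). Without Y127 anaerobic column 1 neither the ERG6 rise (0.51, adjusted p = 0.0616) nor the ERG24 rise (0.41, adjusted p = 0.0612) was called in that strain. ERG4, for the reductase of the last step, fell in Y22-3 and Y127 (−0.93 and −0.88), and ERG7, for lanosterol synthase, fell in Y127 and Y128 (−0.38 and −0.65). The Y127 call of ERG7 was lost without aerobic column 1, aerobic column 2 or anaerobic column 2 (−0.46 to −0.28).

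On xylose all 13 genes fell in Y22-3, from −4.83 for ERG5 to −2.54 for ERG2, and all 13 were still lower with centred libraries (−3.67 to −1.38). In Y127, 12 of 13 fell, from −2.63 for ERG2 to −0.63 for ERG24, and ERG1 did not pass the test. In Y128, which grew, 5 rose (ERG1, ERG11, ERG24, ERG26 and ERG28, by 0.59 to 0.94) and 3 fell (ERG5, ERG3 and ERG4). The ERG28 rise was not called without aerobic replicate A (0.53) or anaerobic replicate B (0.47, adjusted p = 0.129). Over all members, 4 rose and 29 fell in Y22-3, against 20.7% and 63.7% of all genes, and with centred libraries 7 rose and 25 fell, against 40.3% and 45.0%. In Y127, 6 rose and 23 fell (27 with centred libraries, against 37.3% of all genes), against 33.6% and 23.5%, and in Y128, 14 rose and 8 fell, against 21.0% and 26.3%. The median over the members was −3.41 in Y22-3 (−2.26 centred), −1.18 in Y127 and 0.26 in Y128.

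On xylose, ERG1 stood at 7.69 and 7.62 with oxygen against 4.50 and 4.43 without in Y22-3, at 7.24 and 7.21 against 7.07 and 6.73 in Y127, and at 7.06 and 7.37 against 8.06 and 8.23 in Y128. ERG1 fell by 3.19 in Y22-3, was at −0.33 ± 0.22 in Y127 (adjusted p = 0.221) and rose by 0.93 ± 0.22 in Y128. On xylose, ERG11 stood at 8.70 and 8.51 with oxygen against 4.98 and 5.00 without in Y22-3, at 8.27 and 8.23 against 6.87 and 6.69 in Y127, and at 7.99 and 8.38 against 8.96 and 9.18 in Y128. ERG11 changed by −3.61 ± 0.18, −1.47 ± 0.18 and 0.88 ± 0.18, a rise in the growing strain and a fall in both others. On xylose, ERG25 stood at 9.24 and 8.83 with oxygen against 4.90 and 4.95 without in Y22-3, at 9.52 and 9.33 against 7.16 and 6.79 in Y127, and at 9.0 and 9.16 against 9.41 and 9.67 in Y128. ERG25 changed by −4.11 ± 0.19 and −2.46 ± 0.19, and by 0.46 ± 0.19 in Y128, where it did not pass the test (adjusted p = 0.0519).

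On xylose, ERG3 stood at 8.86 and 8.59 with oxygen against 4.38 and 4.21 without in Y22-3, at 9.67 and 9.49 against 7.32 and 7.29 in Y127, and at 9.55 and 9.60 against 8.0 and 8.10 in Y128. ERG3 fell in all 3 strains (−4.43 ± 0.16, −2.28 ± 0.16 and −1.52 ± 0.16). On xylose, ERG5 stood at 8.09 and 7.67 with oxygen against 3.07 and 3.03 without in Y22-3, at 8.24 and 7.88 against 6.52 and 6.01 in Y127, and at 8.0 and 8.09 against 4.30 and 4.52 in Y128. ERG5 fell by 4.83 or 28.4-fold in Y22-3, by 1.80 or 3.47-fold in Y127, and by 3.63 or 12.4-fold in Y128. It was the only gene between squalene and ergosterol whose oxygen effect was lower in Y128 than in Y127 (difference −1.84 ± 0.29, adjusted p = 6.11e-05). Both desaturase genes thus fell in Y128 while ERG1, ERG11 and ERG24 rose there, although ERG3 without oxygen was higher in Y128 than in the other strains.

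**Figure D4:**
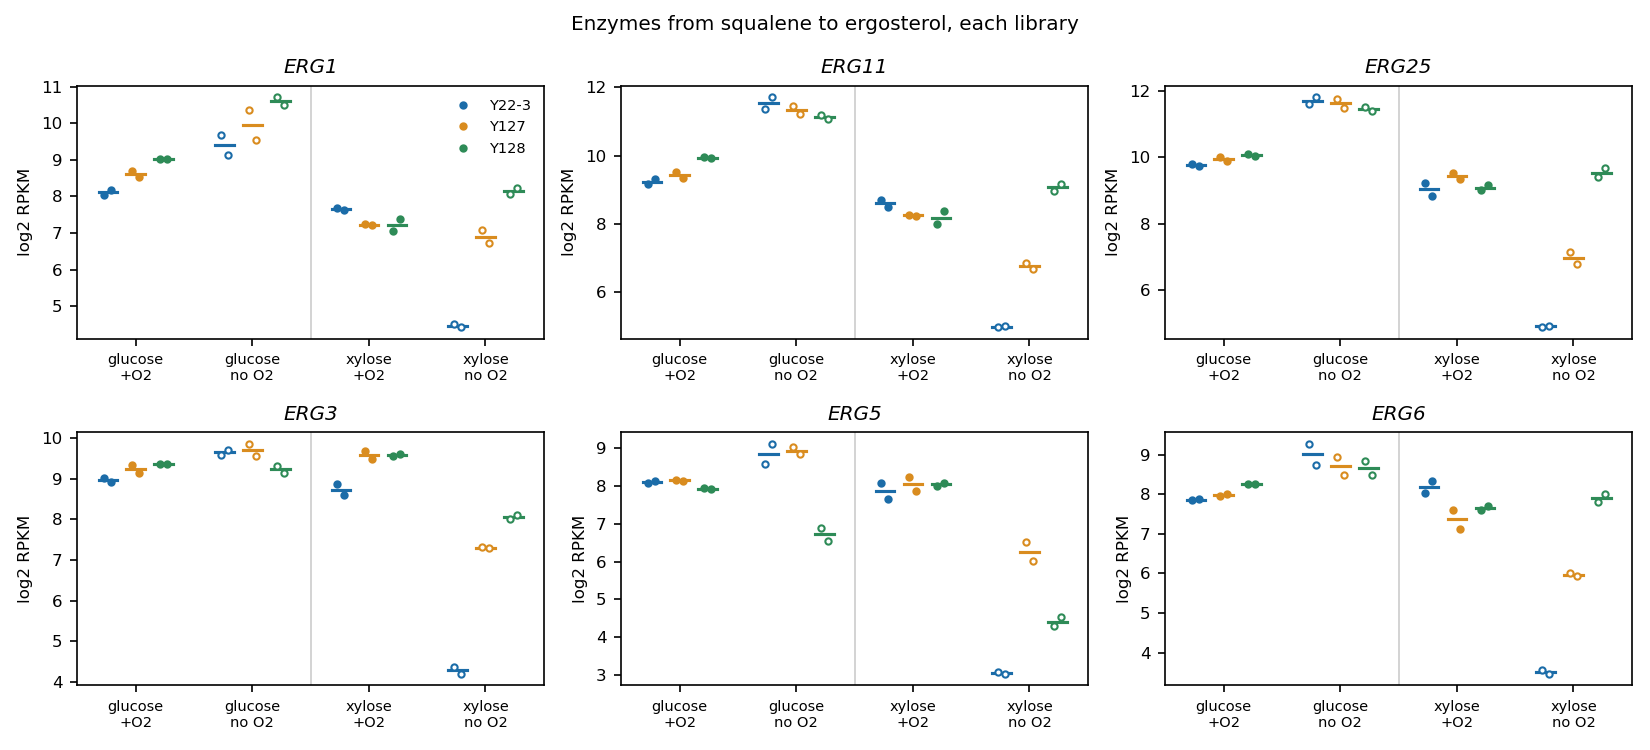
Log2 RPKM of the 5 genes for oxygen-using enzymes (ERG1, ERG11, ERG25, ERG3, ERG5) and of ERG6 in each of the 24 duplicated libraries (circles, filled with oxygen and open without, coloured by strain; bars are means of 2). Without oxygen on xylose, ERG1, ERG11, ERG25, ERG3 and ERG6 are ordered Y22-3, Y127, Y128 from low to high, while ERG5 in Y128 (4.30 and 4.52) is below Y127 (6.52 and 6.01).

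On xylose, ERG6 stood at 8.02 and 8.32 with oxygen against 3.56 and 3.47 without in Y22-3, at 7.61 and 7.13 against 6.01 and 5.93 in Y127, and at 7.61 and 7.69 against 7.80 and 8.02 in Y128. ERG6 fell by 4.66 in Y22-3 and 1.40 in Y127 and did not pass the test in Y128 (0.26 ± 0.20, adjusted p = 0.307). On xylose, ERG24 stood at 6.47 and 6.48 with oxygen against 2.64 and 2.30 without in Y22-3, at 6.41 and 6.03 against 5.66 and 5.53 in Y127, and at 5.95 and 6.09 against 6.59 and 6.63 in Y128. ERG24 changed by −4.00 ± 0.15, −0.63 ± 0.15 and 0.59 ± 0.15. Its anaerobic levels in Y128 were above both aerobic libraries, those in Y22-3 and Y127 below them. When the Y127 libraries were fitted alone the fall of ERG24 was not called (adjusted p = 0.163).

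The electron donors parted on glucose. NCP1, the reductase gene that passes electrons from NADPH to Erg1 and the cytochromes Erg11 and Erg5, rose in the 3 strains (1.27, 0.90 and 0.91). CYB5 (YNL111C) encodes the cytochrome that serves the oxidase Erg25 and the desaturase Erg3. On glucose, CYB5 stood at 8.38 and 8.36 with oxygen against 8.01 and 7.49 without in Y22-3, at 8.43 and 8.38 against 7.89 and 7.31 in Y127, and at 8.65 and 8.58 against 7.82 and 7.01 in Y128. CYB5 fell in Y127 and Y128 (−0.81 ± 0.27 and −1.20 ± 0.27) and was at −0.62 ± 0.27 in Y22-3 (adjusted p = 0.0529), where 1 RPKM added, the libraries fitted alone, or leaving out anaerobic replicate A (−0.88) made it a call. The Y127 fall was not called without aerobic column 1 (−0.78, adjusted p = 0.0587) or anaerobic column 2 (−0.52, adjusted p = 0.172). On xylose, CYB5 stood at 7.10 and 6.38 with oxygen against 3.21 and 2.76 without in Y22-3, at 7.38 and 6.88 against 3.98 and 4.09 in Y127, and at 7.36 and 7.52 against 7.05 and 7.33 in Y128. On xylose CYB5 fell 13.5-fold in Y22-3 and 8.54-fold in Y127 and did not pass the test in Y128 (−0.25 ± 0.27, adjusted p = 0.475). NCP1 fell in Y22-3 (−1.91) and rose in Y128 (0.42), the latter a call that no fit with 1 library left out kept (adjusted p = 0.109 to 0.119).

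Sterol esters are the stored form of sterol, made by the acyltransferases Are1 and Are2. On glucose, ARE1 stood at 3.17 and 3.64 with oxygen against 6.66 and 6.74 without in Y22-3, at 4.11 and 4.08 against 6.92 and 6.80 in Y127, and at 4.03 and 4.14 against 7.12 and 6.99 in Y128. ARE1 (YCR048W) rose by 3.30 ± 0.16, 2.77 ± 0.16 and 2.97 ± 0.16. On xylose, ARE1 stood at 2.13 and 2.26 with oxygen against 5.04 and 4.79 without in Y22-3, at 3.25 and 3.35 against 5.58 and 5.55 in Y127, and at 3.27 and 3.12 against 6.67 and 6.82 in Y128. On xylose it rose as well, by 2.72 ± 0.16, 2.26 ± 0.16 and 3.55 ± 0.16, so that ARE1, HMG2, AUS1 and PDR11 were the members that rose in all 6 comparisons. With centred libraries UPC2 and ECM22 did so too.

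ARE2 (YNR019W) went the other way. On glucose, ARE2 stood at 5.95 and 5.96 with oxygen against 5.53 and 4.78 without in Y22-3, at 6.12 and 6.17 against 5.58 and 5.47 in Y127, and at 6.35 and 6.38 against 5.90 and 5.93 in Y128. It fell by 0.80 ± 0.23 in Y22-3 and 0.62 ± 0.23 in Y127 and was at −0.45 ± 0.23 in Y128 (adjusted p = 0.0901), with aerobic libraries above anaerobic ones in each strain. The Y22-3 call was lost without anaerobic replicate B (−0.43, adjusted p = 0.147), and the Y127 call without aerobic column 1 (−0.64), aerobic column 2 (−0.59) or anaerobic column 2 (−0.56, adjusted p = 0.1). On xylose, ARE2 stood at 5.60 and 5.89 with oxygen against 4.77 and 4.63 without in Y22-3, at 5.66 and 5.37 against 4.21 and 5.10 in Y127, and at 5.74 and 5.77 against 2.96 and 3.07 in Y128. ARE2 fell most in the growing strain, by 2.73 ± 0.23 or 6.66-fold in Y128, a larger fall than in Y22-3, with a difference of −1.69 ± 0.33 (adjusted p = 9.42e-05), and than in Y127, with one of −1.88 ± 0.33 (adjusted p = 0.000179). In Y22-3 the change of −1.04 became 0.11 with centred libraries, and in Y127 the change of −0.86 was not called without anaerobic replicate A (−0.42, adjusted p = 0.128). With oxygen ARE2 was above ARE1 in every glucose and xylose library, and without oxygen on glucose ARE1 was above ARE2 in every library.

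YEH1 (YLL012W) and YEH2 (YLR020C) encode hydrolases that release sterol from its esters. On glucose, YEH1 stood at 5.64 and 5.64 with oxygen against 5.70 and 5.92 without in Y22-3, at 5.60 and 5.68 against 5.58 and 5.80 in Y127, and at 5.95 and 5.95 against 4.99 and 5.20 in Y128. YEH1 fell in Y128 (−0.86 ± 0.19) and was at 0.17 ± 0.19 and 0.06 ± 0.19 in the others, with overlapping libraries in Y127. On xylose, YEH1 stood at 4.19 and 3.55 with oxygen against 1.64 and 1.40 without in Y22-3, at 4.76 and 4.68 against 3.76 and 4.14 in Y127, and at 4.91 and 5.04 against 2.86 and 3.05 in Y128. YEH1 fell by 2.35, 0.77 and 2.02 on the log2 scale, and fell more in Y128 than in Y127, with a difference of −1.25 ± 0.27 (adjusted p = 0.00105). The Y127 fall was not called with its libraries fitted alone (adjusted p = 0.0867). On glucose, YEH2 stood at 4.40 and 4.46 with oxygen against 4.70 and 4.66 without in Y22-3, at 4.29 and 4.25 against 4.08 and 4.16 in Y127, and at 4.51 and 4.35 against 5.11 and 5.07 in Y128. YEH2 rose in Y128 (0.66 ± 0.18) and did not pass the test in the others. On xylose, YEH2 stood at 3.56 and 3.08 with oxygen against 1.65 and 1.37 without in Y22-3, at 3.94 and 3.37 against 3.26 and 3.21 in Y127, and at 3.84 and 3.89 against 4.50 and 4.55 in Y128. YEH2 fell in Y22-3 (−1.81 ± 0.18), was at −0.42 ± 0.18 in Y127 (adjusted p = 0.0576) and rose in Y128 (0.66 ± 0.18), so the hydrolase genes went opposite ways in Y128 on both sugars. Without Y127 aerobic xylose replicate B the change of YEH2 in that strain was a called fall (−0.70, adjusted p = 0.00329).

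The interactions on xylose asked whether lack of oxygen acts differently in the strains, which differ in growth there. From Y22-3 to Y127 the oxygen effect was higher for 29 members and lower for 0, against 65.3% and 8.90% of all genes. The number of members with a lower effect was 0 at an unadjusted p under 0.05, and 1 (ARE1, −0.59) without Y22-3 anaerobic replicate B. With centred libraries 18 were higher and 6 lower, against 32.1% and 34.5%, and the median over the members was 0.63 beside −0.04 over all genes. The call of HMG2, at 0.41, turned to −0.98 with centred libraries. The 3 largest were ERG24 (3.38 ± 0.21), ERG6 (3.26 ± 0.29) and ERG5 (3.03 ± 0.29). From Y22-3 to Y128 it was higher for 31 and lower for 1, ARE2, against 59.3% and 19.1%, and with centred libraries higher for 25 and lower for 2, ARE2 and YEH1, against 40.1% and 38.0%. The 3 largest were AUS1 (7.26 ± 0.23), UPC2 (5.21 ± 0.25) and ERG6 (4.92 ± 0.29).

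From Y127 to Y128, strains that differ by growth on anaerobic xylose and by the loss of GRE3 and IRA2, the oxygen effect was higher for 26 of 33 members and lower for 3, against 13.1% and 24.3% of all genes. Centring left this at 27 and 3, against 25.6% and 22.9%. AUS1 (4.74), ERG25 (2.91 ± 0.27) and CYB5 (2.85 ± 0.39) changed most, followed by ERG2 (2.74) and MVD1 (2.70). The 3 members with a lower effect were ERG5, ARE2 and YEH1, and 4 did not pass the test (HMG1, ERG8, ERG4 and ECM22). Calls of ERG3, ERG7, ERG9 and NCP1 were each lost without 1 or more single libraries, ERG3 without Y128 aerobic replicate A (0.73, adjusted p = 0.0503) or anaerobic replicate B (0.71, adjusted p = 0.0575). ERG7 was called only without Y127 aerobic replicate B or Y128 aerobic replicate B, ERG9 not without Y127 anaerobic replicate A or Y128 anaerobic replicate B, and NCP1 not without Y127 anaerobic replicate B. The median was 1.29 over the members and −0.20 over all genes. Among the hypoxic markers 14 of 19 were higher and 0 lower in the same comparison.

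**Figure D5:**
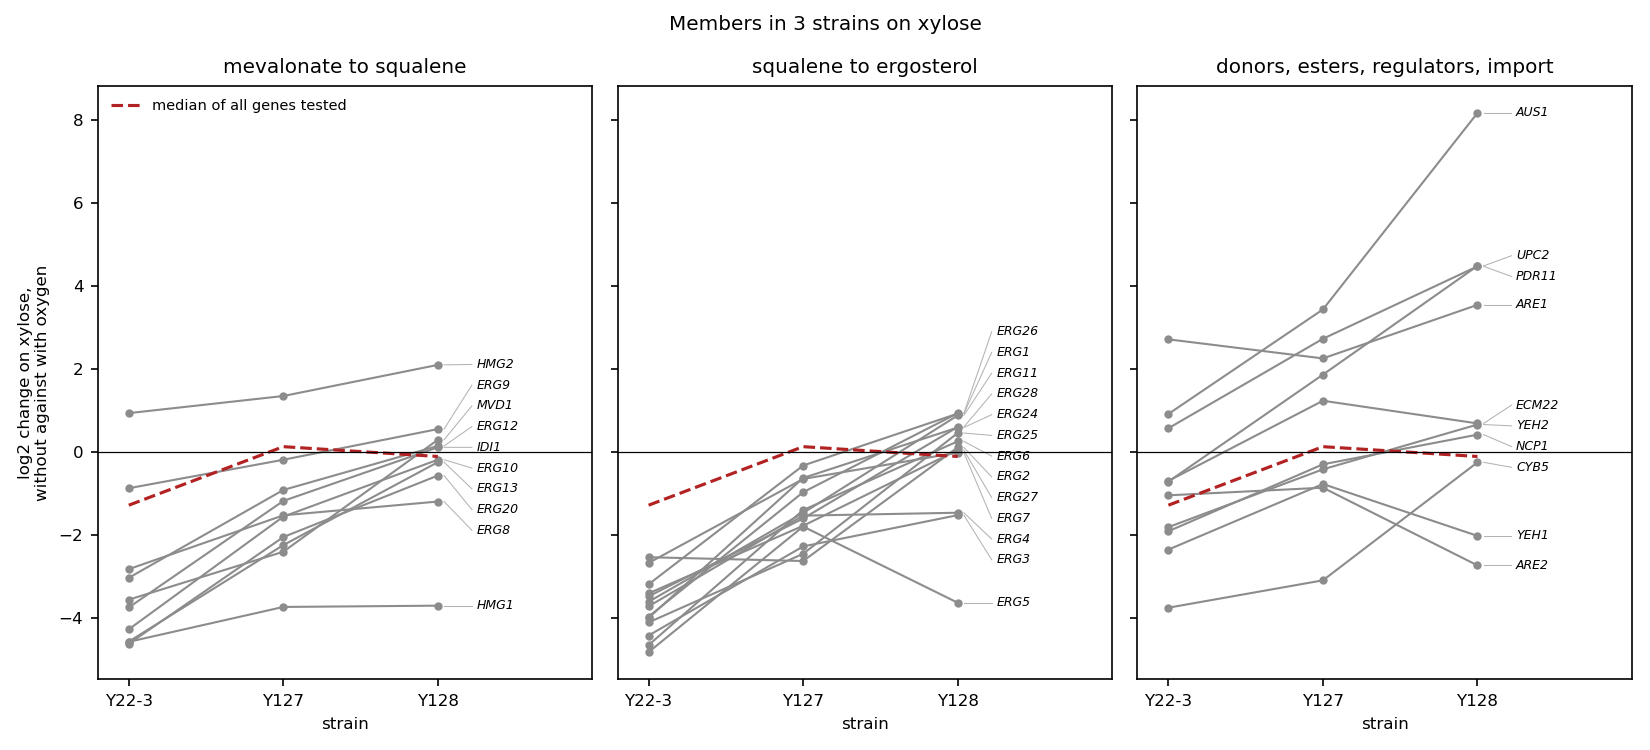
Log2 change on xylose without against with oxygen (vertical) in Y22-3, Y127 and Y128 (horizontal), with 1 grey line per member and the dashed red line for the median of all 5801 genes. The members of the first 2 panels lie mostly below the dashed line in Y22-3 and Y127 and near 0 in Y128, with HMG1 (−3.71) and ERG5 (−3.63) as the lowest there.

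With oxygen, all 3 strains grew in the xylose medium, although the study describes Y22-3 as unable to metabolize xylose. There 15 to 18 of the 33 members were lower than on glucose. In Y22-3, 3 members were higher on xylose and 15 lower, against 31.0% and 22.1% of all genes. In Y127, 0 were higher and 16 lower, against 14.0% and 25.8%, and in Y128, 0 were higher and 18 lower, against 24.3% and 18.6%. At an unadjusted p under 0.05 the counts of higher members were 1 in Y127 and 1 in Y128, and in Y128, 4 members were called higher when the libraries were fitted alone. With centred libraries Y22-3 had 2 members higher and 22 lower (28.6% and 34.6% of all genes), Y127 had 2 and 12 (22.0% and 21.9%), and Y128 had 0 and 20 (25.7% and 29.7%). The counts of lower members went down to 9 without Y22-3 aerobic xylose replicate B, to 9 in Y127 with its libraries fitted alone, and to 11 without replicate A of Y128 aerobic glucose or of Y128 aerobic xylose.

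ERG1, ERG11 and CYB5 differed most between the sugars in the evolved strains. ERG1 differed by −1.38 ± 0.22 in Y127 and −1.81 ± 0.22 in Y128, and ERG11 by −1.20 ± 0.18 and −1.75 ± 0.18. In Y22-3 ERG1 did not pass the test (−0.46 ± 0.22, adjusted p = 0.0866) and ERG11 was lower by 0.63, a call lost without the B library of either sugar (adjusted p = 0.0556 without glucose B, 0.0519 without xylose B). CYB5 was lower on xylose in each strain (−1.63, −1.27 and −1.18), as were ARE1 (−1.21, −0.79 and −0.89) and YEH1 (−1.77, −0.92 and −0.98). The late genes ERG3 and ERG5 did not pass the test in any strain with oxygen (−0.25 to 0.34 for ERG3, −0.22 to 0.12 for ERG5). With centred libraries, though, ERG3 was called lower in Y22-3 (−0.44, adjusted p = 0.0114) and higher in Y127 (0.51, adjusted p = 0.00734), and it was called higher in Y128 with its libraries fitted alone (0.21, adjusted p = 0.00353). The ARE1 difference in Y127 was not called with its libraries fitted alone (adjusted p = 0.0609). Differences between strains in the effect of the sugar were not tested.

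Without oxygen, Y128 was the strain that grew on both sugars, and 24 of its members were lower on xylose than on glucose and 0 higher, against 26.5% and 12.3% of all genes. At an unadjusted p under 0.05, 0 members were higher, and the counts were 1 higher with the libraries fitted alone and 2 higher and 17 lower with centred libraries (26.6% and 22.5% of all genes). Leaving out the A library of glucose or of xylose brought the lower count to 14 or 13. All 5 oxygen-using enzymes were lower (ERG1 −2.46 ± 0.22, ERG5 −2.31 ± 0.20, ERG11 −2.05 ± 0.18, ERG25 −1.90 ± 0.19, ERG3 −1.18 ± 0.16), with a median of −2.05. The other 8 genes between squalene and ergosterol had a median of −0.48, with 5 lower, and all genes one of −0.18. ARE2 (−2.90 ± 0.23) and YEH1 (−2.14 ± 0.19) were among the lowest too, and UPC2 and ECM22 were lower by 1.36 and 1.05. HMG2 (0.03) and IDI1 (0.03) were close to their glucose level and did not pass the test.

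Galactose and sorbitol had 1 library per condition, so their differences have no replicate check and no test, and a difference of at least 2-fold was counted. On galactose without oxygen, 3 members of Y22-3 were 2-fold higher and 25 lower, against 9.74% and 58.2% of all genes, and 6 and 15 with centred libraries, against 22.7% and 21.9%. All genes had shifted there by a median of −1.25. In Y128, 5 were higher and 7 lower, against 7.86% and 23.1%. AUS1 went from 2.35 to 9.78 in Y128 and from 2.39 to 3.41 in Y22-3, and UPC2 from 2.79 to 6.41 and from 2.97 to 3.23. PDR11 went from 2.31 to 6.77 in Y128 and from 2.08 to 3.79 in Y22-3. The anaerobic galactose level of Y128 lay between its glucose and xylose pairs for AUS1 and PDR11, and below both pairs for UPC2.

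Without oxygen on galactose, 7 of 33 members of Y128 were 2-fold lower, against 23.1% of all genes. With centred libraries the count was also 7, against 10.3%. The 7 were spread over the early, late and ester genes, each in 1 library per condition. ERG5 went from 7.90 to 4.49, ERG3 from 9.92 to 8.05 and HMG1 from 7.23 to 3.89. ARE2 went from 5.57 to 3.09 and YEH1 from 4.69 to 2.95, and the other two were ERG8 (−1.86) and ERG20 (−1.48). ARE1 was higher (2.63), and ERG1 (0.53), ERG11 (0.54), ERG25 (0.25), YEH2 (0.04), ERG2 (−0.20) and ERG6 (−0.63) were within 2-fold. The anaerobic ERG5 level of 4.49 on galactose lay between the xylose libraries of the same strain and below its glucose libraries.

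On sorbitol, where neither strain grew, 0 members of either strain were 2-fold higher without oxygen, and 27 were 2-fold lower in Y22-3 and 22 in Y128. Over all genes 4.69% were higher and 72.2% lower in Y22-3, and 8.34% and 60.6% in Y128. With centred libraries, 6 members were higher and 2 lower in Y22-3, against 28.8% and 17.5% of all genes, and 8 and 6 in Y128, against 27.9% and 20.4%, so neither strain had a larger share of higher members than of higher genes. AUS1 went from 4.30 to 1.88 in Y22-3 and from 3.50 to 3.06 in Y128, and HMG2 from 6.93 to 5.44 and from 6.48 to 4.20. Both were therefore lower without oxygen on sorbitol, unlike in the duplicated groups, though with centred libraries AUS1 in Y128 (1.08) and HMG2 in Y22-3 (0.58) were higher. HMG1 was lower here too, going from 6.53 to 3.44 in Y22-3 and from 7.86 to 4.13 in Y128.

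Of 31 further genes of the pathway, 30 were tested. Without oxygen on glucose 17 rose and 6 fell in Y22-3, Y127 had 17 and 7, and Y128 had 18 and 6, beside 37.7% and 27.6%, 35.3% and 32.9%, and 39.6% and 28.8% of all genes. On xylose 7 rose and 18 fell in Y22-3, beside 20.7% and 63.7%, and 13 and 14 with centred libraries, close to the 40.3% and 45.0% of all genes. Y127 had 11 rising and 9 falling, also close to its 33.6% and 23.5%, and Y128 had 16 and 7, beside 21.0% and 26.3%. These genes were planned as counts only, and those named here are examples that did not all move alike. On glucose OSH7 changed by −0.76, −0.68 and −1.06 in Y22-3, Y127 and Y128, and NSG1 by −1.60, −1.95 and −1.28. The sterol transfer protein gene OSH5 (HES1) changed by 10.43, 10.37 and 10.64 on glucose and by 1.41, 3.95 and 10.70 on xylose. MGA2, for a hypoxia-responsive regulator in the study, changed by 3.29, 3.31 and 3.70 on glucose and by −2.67, 1.54 and 3.18 on xylose. DAP1, for the haem protein that supports Erg11, rose on glucose (2.30, 2.61 and 2.92) and changed by −1.64, 1.80 and 2.74 on xylose. ROX1, for a repressor of hypoxic genes made when haem is present, changed by −3.33, −3.50 and −3.09 on glucose and by −0.74, −2.42 and −6.95 on xylose, the lowest in Y128 on xylose, and did not pass the test in Y22-3 on xylose. SUT1, for an activator of sterol uptake, rose in all 6 comparisons (3.22, 2.87 and 2.49 on glucose, 3.90, 3.32 and 3.58 on xylose). Whether these regulators have a part in the changes of the members was not tested.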

How the data were processed

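Total RNA, depleted of ribosomal RNA, was sequenced from 32 cultures of Y22-3, Y127 and Y128. The submitters' processing notes and the study's methods name Trimmomatic 0.3.0, Bowtie2 2.2.2 with the Y22-3 genome as target, HTSeq 0.6.0 for reads per gene and edgeR for the authors' own tests. The authors deposited log2 RPKM values for 6328 genes, so no counts were at hand and no count test was run. Low values step as if 1 read had been added to every gene before scaling, so the totals and read numbers given are estimates made on that assumption. How reads shared by related gene pairs, such as HMG1 and HMG2 or ARE1 and ARE2, were counted is not given in the sources used here.

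Groups came from the labels. limma 3.58.1 in R 4.3.3, its variance prior following expression, was fitted to the 24 duplicated libraries (12 groups, leaving 12 degrees of freedom). It ran on 5801 genes that averaged 1 RPKM or more, and p-values of each of 14 comparisons were adjusted by the Benjamini-Hochberg method over all 5801 genes. Single libraries were compared by a 2-fold difference with no test. Scripts used Python 3.11.15, numpy 2.4.6, pandas 2.3.3, scipy 1.17.1 and matplotlib 3.10.9, and the fit was tested on simulated data. Alternatives were libraries centred on their median, no filter, 1 RPKM added, the compared libraries fitted alone, a replicate block, and each library left out in turn. The members and gene lists were chosen with earlier results of these data known, and the interaction on glucose was added after its values had been seen. The rule for naming genes gave values in every library to regulators, importers, ester genes, HMG-CoA reductases, oxygen-using enzymes and the 3 members with the largest change in each main comparison, and ranges and counts to the rest. A planned count of promoter motifs was not run, since the reference at hand is another build than the genome used for mapping, and no coordinates or sequences are given.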

Additional observations from a re-analysis of the deposited data

Results flagged for a closer look

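The oxygen effect on xylose differed between strains for most members. It passed the test of the interaction for 29 members between Y127 and Y22-3, for 32 between Y128 and Y22-3 and for 29 between Y128 and Y127, and on glucose for 7 members between Y128 and Y22-3. Most genes differed in the xylose comparisons with Y22-3 too. Of all genes, 65.3% were higher and 8.90% lower in Y127 than in Y22-3, and 59.3% and 19.1% in Y128. Between Y128 and Y127 these shares were 13.1% and 24.3%, and on glucose 6.55% and 2.41%. Fewer members were called in opposite directions in the 2 strains of a pair. Between Y127 and Y22-3 on xylose these were UPC2 (difference 2.58) and ECM22 (1.93), both of which were higher without oxygen in Y22-3 as well when libraries were centred. Between Y128 and Y22-3 they were UPC2 (5.21), ERG26 (4.91), ERG24 (4.59), ERG11 (4.50), ERG1 (4.12), ERG28 (4.09), YEH2 (2.48), NCP1 (2.33), ERG9 (1.43) and ECM22 (1.39). Centring turned UPC2, ECM22 and ERG9 to higher without oxygen in Y22-3 and left the other 7 lower. Between Y128 and Y127 they were ERG11 (2.35), ERG28 (2.21), ERG26 (1.91) and ERG24 (1.22), which fell in the strain that did not grow on xylose without oxygen and rose in the strain that did. On glucose ERG5 rose in Y22-3 and fell in Y128 (difference −1.96), in a comparison chosen after its values were seen, and with centred libraries ERG3 (−0.44, adjusted p = 0.00955) and ERG24 (−0.41, adjusted p = 0.00207), which rose in Y22-3, were called lower in Y128 as well. Growth and strain cannot be told apart on xylose, and no cause of the difference on glucose was tested.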

How the results depend on the processing

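Over 462 results, 33 members in 14 comparisons, dropping the filter changed no call, adding 1 RPKM changed 4, fitting the compared libraries alone changed 47 (23 lost, 24 gained) and leaving out single libraries lost 163 and gained 19 of 2376, with 0 changes of direction in any of these. Centring libraries on their median lost 27 calls, gained 36 and turned 12. Those 12 were, without oxygen on xylose in Y22-3, UPC2 (0.44), ECM22 (0.46), ERG9 (0.28) and ARE2 (0.11), in the difference between Y127 and Y22-3, HMG2 (−0.98), ERG9 (−0.71), HMG1 (−0.55), MVD1 (−0.24), ERG8 (−0.10) and YEH2 (−0.001), and in that between Y128 and Y22-3, ARE1 (−0.33) and HMG1 (−0.29). These follow from the shift of the median gene in Y22-3, and whether the shift is of these cells or of the library totals was not tested.

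Centring also moved the counts of members. Without oxygen on glucose it gave 8 lower in Y22-3 (40.2% of all genes) and 12 lower in Y128 (41.9%). On xylose it gave 7 higher in Y22-3 (40.3%). The xylose interactions became 18 higher and 6 lower between Y127 and Y22-3 (32.1% and 34.5% of all genes). Between Y128 and Y22-3, 2 were lower (38.0%), and in the glucose interaction 11 were lower (6.26%). In xylose against glucose it gave 2 higher in Y127 with oxygen (22.0% of all genes) and 2 higher in Y128 without oxygen (26.6%). Past 2-fold it gave 6 higher and 15 lower in Y22-3 galactose (22.7% and 21.9% of all genes). On sorbitol it gave 6 higher and 2 lower in Y22-3 (28.8% and 17.5%), and 8 and 6 in Y128 (27.9% and 20.4%). Fitting the compared libraries alone gave, for xylose against glucose, 9 lower in Y127 and 4 higher in Y128 with oxygen and 1 higher in Y128 without, and 1 higher in the glucose interaction. The cause was not tested.

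With 1 library left out, the counts of lower members ranged from 4 to 7 for oxygen on glucose in Y127, from 0 to 1 in the interaction between Y127 and Y22-3, from 3 to 7 in the glucose interaction, from 9 to 14 and from 11 to 13 for xylose against glucose with oxygen in Y22-3 and Y128, and from 13 to 16 without oxygen in Y128. Higher members in the glucose interaction ranged from 0 to 1. A group left with 1 library is assumed to vary like the others.

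The letters of the replicates were not treated as pairs in the main fit. Correlations of same-lettered deviations between the 10 lettered groups ran from −0.105 to 0.332 (median 0.01, 7 of 45 pairs over 0.1). Whether some groups shared a day was not tested. With a replicate block, 2 calls were lost and 6 gained of 396, and xylose against glucose with oxygen in Y128 had 1 member higher in place of 0. With 2 libraries a group, small changes are the ones whose calls came and went, and a change that was not called is not shown to be absent.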
